A study of Rattus norvegicus with 8 samples.

Results

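The genes described here make, move and export cholesterol in the liver. A list of 33 rat genes was followed, in 4 groups by role: 20 genes of sterol synthesis, 4 genes that control the sterol response, 3 genes of transport inside the cell, and 6 genes of uptake, efflux and esterification. Each gene was represented by its probe with the brightest liver signal. Of the 33 genes, 31 gave a signal well above background and were tested, among 10566 genes or unnamed probes tested in all. Ggps1, which makes a longer isoprenoid than the sterol branch uses, and Abcg8, the partner of Abcg5 in the canalicular sterol exporter, were not well above background on any of the 8 arrays.

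The liver came from male Sprague-Dawley rats 21 days old, which stayed with their own mothers. Dams of the Control group received corn oil. Dams of the 0.5MAhR group received 0.5 mg/kg/day of a mixture in corn oil through gestation and lactation, which held methyl mercury (MeHg), polychlorinated biphenyls (PCBs) and organochlorine pesticides (OCPs). They also received agonists of the aryl hydrocarbon receptor (AhR), a transcription factor activated by dioxins: non-ortho PCBs and polychlorinated dibenzodioxins and dibenzofurans. The labels give the dioxin-equivalent dose of this group as 6.3 ng/kg/day. Each array held the pooled RNA of 2 pups, and each group had 8 pups on 4 arrays, numbered 5 to 8 for Control and 1 to 4 for 0.5MAhR. Which litter a pup came from was not given. The spread between arrays is a spread between pools, and pups of a litter may lie in different pools. Each array carried liver cRNA in Cy5 and a common reference from 14 rat cell lines in Cy3, always in that orientation. A level below is the log2 ratio of liver over reference, which is comparable between arrays for a gene but not between genes.

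The position number of each array divided the arrays into 2 sets, called slide sides here, with 2 Control and 2 0.5MAhR arrays in each. The labels do not describe how samples were placed, so the name slide side is a reading of that number. Side 1 held Control 5 and 7 and 0.5MAhR 2 and 4, and side 2 held Control 6 and 8 and 0.5MAhR 1 and 3. Arrays of the same side correlated with r between 0.981 and 0.991 over genes, and arrays of different sides with r between 0.938 and 0.962. Differences are therefore given over all 8 arrays and within each side. The median Cy5 signal was 81 to 94 intensity units. The 7 hepatocyte markers, Alb and Ttr among them, were all measured, and their summed net Cy5 signal lay between 531800 and 609500 on Control arrays and between 465800 and 644600 on 0.5MAhR arrays. None of the tested markers of Kupffer, endothelial, stellate, bile duct, erythroid, lymphocyte and neutrophil cells passed an adjusted p of 0.05 in limma, and the T cell marker Cd3e was not above background. In bulk tissue, fewer cells of a type and less RNA per cell cannot be told apart.

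Cholesterol is built from acetyl-CoA through mevalonate, isoprenoids, squalene and lanosterol. When sterols in the endoplasmic reticulum fall, SCAP carries the sterol regulatory element binding protein SREBP-2 to the Golgi, where it is cut to an active transcription factor that raises the synthesis genes. INSIG proteins hold SCAP back when sterols are plentiful. Excess sterol is esterified, or exported to lipoprotein by ABCA1 and to bile by ABCG5 and ABCG8 under control of the liver X receptors (LXR).

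Promoter sequences are shown for 6 members, because the synthesis genes moved together over the arrays and these genes are known to be under shared sterol control. Of the 33 members, 27 had an entry in the RefSeq promoter table of rat assembly GRCr8, and the 250 bases before each start were searched on both strands. The sterol element TCACNCCAC was in 0 of 27 member promoters and in 1.01% of the 6040 promoters of tested genes. The shortened form TCACNCCA, chosen after the windows had been read, was in the promoters of Msmo1 and Srebf2, 2 of 27 members, against 2.93% of the promoters of tested genes. This form lies inside the longer one and overlaps it wherever the longer one occurs. The CCAAT box, the binding letters of nuclear factor Y, was in 20 of 27 member promoters (74.1%) and in 13 of 17 synthesis promoters (76.5%), against 36.9% of the promoters of tested genes. A match describes letters in these windows and shows no binding, and its absence says only that these letters were not in the 250 bases. Each window below has 120 bases and lies before the annotated start, 5′ to 3′ on the gene's strand. Capitals mark the CCAAT box, read as ATTGG where it lies on the opposite strand, or the shortened sterol element TCACTCCA or TCACCCCA. The windows lie at chr2:53382076-53382195 (plus strand) for Hmgcs1, chr16:29746883-29747002 (plus) for Msmo1, chr17:66547525-66547644 (minus) for Idi1, chr2:176804867-176804986 (minus) for Fdps, chr7:115543111-115543230 (plus) for Srebf2 and chr4:8057883-8058002 (minus) for Insig1.
Hmgcs1: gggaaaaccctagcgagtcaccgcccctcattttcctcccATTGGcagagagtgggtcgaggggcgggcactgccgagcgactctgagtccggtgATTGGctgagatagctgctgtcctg
Msmo1: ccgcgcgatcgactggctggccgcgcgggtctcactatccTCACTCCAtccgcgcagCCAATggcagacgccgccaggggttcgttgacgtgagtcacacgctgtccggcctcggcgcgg
Idi1: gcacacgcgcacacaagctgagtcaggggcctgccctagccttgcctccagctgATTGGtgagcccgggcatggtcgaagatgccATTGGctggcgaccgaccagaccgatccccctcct
Fdps: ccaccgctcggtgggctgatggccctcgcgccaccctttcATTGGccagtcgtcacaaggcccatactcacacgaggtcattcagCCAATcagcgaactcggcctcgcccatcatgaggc
Srebf2: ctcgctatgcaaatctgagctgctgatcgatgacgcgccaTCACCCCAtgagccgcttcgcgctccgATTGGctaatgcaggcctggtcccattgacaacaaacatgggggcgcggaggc
Insig1: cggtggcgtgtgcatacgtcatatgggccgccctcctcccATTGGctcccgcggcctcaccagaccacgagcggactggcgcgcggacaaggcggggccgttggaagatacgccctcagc

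The comparison of the groups asked whether the mixture changed these genes in the pups' liver. None of the 31 tested members passed an adjusted p of 0.05 in limma, and 0.00946% of all genes tested did. With slide side as a block the count was again 0, beside 0.0473% of all genes, and the smallest adjusted p of a member in limma was 0.772. At an unadjusted p of 0.05, limma called 0 members (1.53% of all genes), and with the block it called 1, Abcg5 (6.35% of all genes). No member had groups that did not overlap, which 1.32% of all genes had.

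All 19 tested synthesis genes had a higher mean in 0.5MAhR than in Control, as 46.8% of all genes had, and their median difference was 0.42 on the log2 scale, against -0.01 over all genes tested. The differences ran from 0.08 to 0.89 and their standard errors from 0.19 to 0.73, and 5 of 19 differences were larger than their standard error. With slide side as a block the standard errors ran from 0.13 to 0.61, and 10 of 19 differences were larger than theirs. Over all members 27 of 31 were higher in 0.5MAhR. Among arrays left out singly, only Control 6, singled out after its values were seen, turned the median difference of the synthesis genes below 0. Without it the median difference of the synthesis genes was -0.12, 4 of 19 were higher in 0.5MAhR (Hmgcs1, Msmo1, Mvd and Mvk), and 8 of 31 members were higher, as 48% of all genes were. Within slide side 1, which does not hold Control 6, the median difference was 0.17, and within side 2 it was 0.64. In 15 of 19 synthesis genes the 0.5MAhR mean was higher in both sides, beside 24.7% of all genes.

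**Figure D1:**
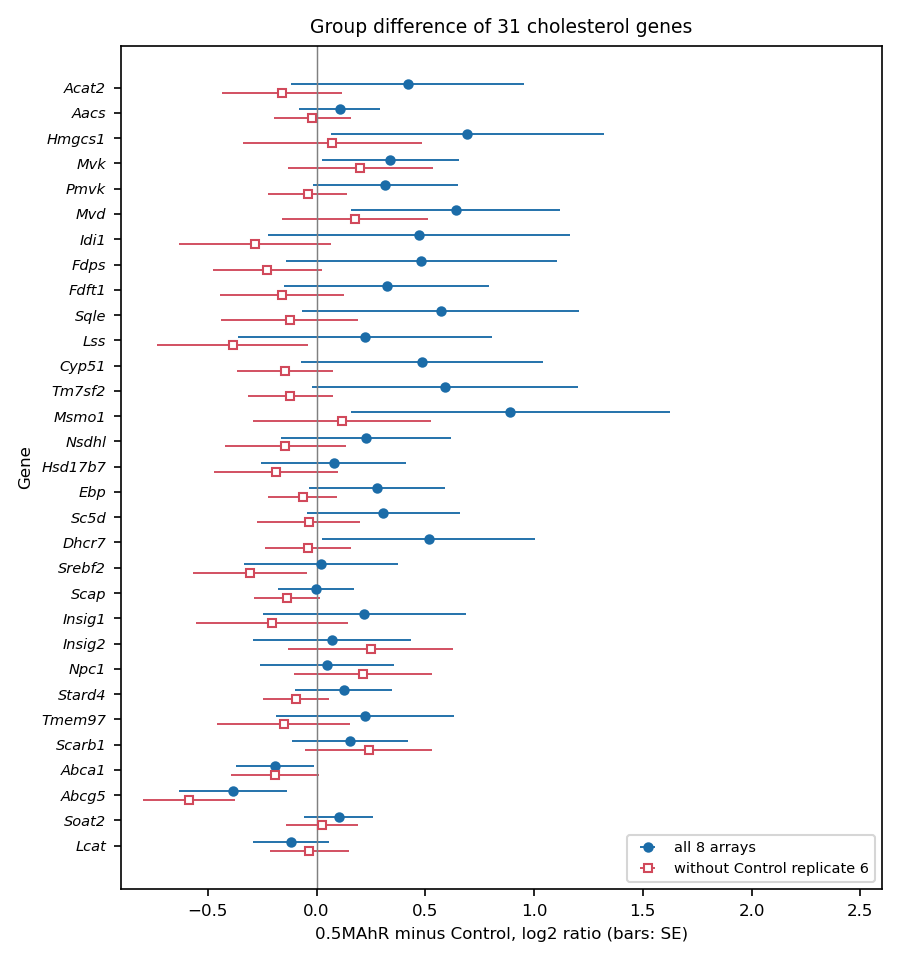
Difference between the group means (0.5MAhR minus Control, log2 ratio) of the 31 tested members, in the order of the pathway, with bars of 1 standard error, over all 8 arrays (filled circles) and without Control 6 (open squares). All 19 synthesis genes from Acat2 to Dhcr7 lie above 0 with all arrays, and 15 of them lie below 0 without Control 6.

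The entry into mevalonate showed the pattern plainly. Hmgcs1, the cytosolic HMG-CoA synthase (probe A_64_P151071), had log2 ratios of 3.66, 0.70, 2.09 and 3.81 on Control arrays 5, 6, 7 and 8, and of 2.82, 3.57, 3.51 and 3.14 on 0.5MAhR arrays 1, 2, 3 and 4. Control arrays held both the highest and the 2 lowest values, and the 0.5MAhR arrays lay between them. The difference was 0.69 (SE 0.63, 95% interval -0.73 to 2.12, limma unadjusted p = 0.297), and without Control 6 it was 0.07. Acat2, the cytosolic thiolase that makes acetoacetyl-CoA, was at -2.00 on Control 6 and between -0.29 and 0.66 on the other 7 arrays. Aacs, which activates acetoacetate for sterol and fatty acid synthesis, was dim, at 3 of 4 arrays above background in each group. It ran from -0.77 on Control 6 to 0.13 on 0.5MAhR 2, the narrowest range of the synthesis genes.

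Of the mevalonate branch, Mvd, the decarboxylase that makes isopentenyl diphosphate (probe A_42_P794613), had the smallest unadjusted p of the genes higher in 0.5MAhR. Its log2 ratios were -0.03, -2.35, -1.30 and -0.16 on Control arrays 5, 6, 7 and 8, and -0.81, 0.14, -0.30 and -0.31 on 0.5MAhR arrays 1 to 4. Control 6 and 7 were the lowest of all arrays, and Control 5 and 8 lay inside the range of the 0.5MAhR arrays. The difference was 0.64 (SE 0.48, 95% interval -0.46 to 1.73, limma unadjusted p = 0.218), and it was 0.58 in side 1 and 0.70 in side 2. Mvk and Pmvk, the 2 kinases of the branch, differed by 0.34 (SE 0.31) and 0.32 (SE 0.33). Mvk was the synthesis gene whose lowest array was not Control 6: it stood at 0.41 on Control 7 and 0.47 on Control 6.

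The isoprenoid enzymes had wide spreads in Control. Idi1, the isopentenyl diphosphate isomerase (probe A_64_P076638), had log2 ratios of 2.49, -1.04, 1.35 and 2.08 on Control arrays 5 to 8, and of 0.95, 2.19, 1.63 and 1.99 on 0.5MAhR arrays 1 to 4. Control 6 was the lowest and Control 5 the highest of the 8 arrays. The difference was 0.47 (SE 0.69), and -0.28 without Control 6. Fdps, the farnesyl diphosphate synthase (probe A_64_P147190), stood at 1.96, -1.03, 1.26 and 2.19 on Control arrays 5 to 8, and at 1.15, 1.87, 1.60 and 1.69 on 0.5MAhR arrays 1 to 4. The other 3 Control values of Fdps bracketed those of 0.5MAhR 2, 3 and 4. Its second probe, A_44_P432965, gave -0.92 on Control 6 and at least 1.16 elsewhere, and a difference of 0.46 against 0.48 with the brighter probe.

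Squalene synthesis and cyclisation followed. Fdft1, the squalene synthase, was at -0.27 on Control 6 and between 0.86 and 2.09 elsewhere. Sqle, the squalene epoxidase and a rate-limiting step (probe A_64_P012232), had log2 ratios of 1.25, -1.94, 0.18 and 1.10 on Control arrays 5 to 8, and of 0.16, 1.21, 0.63 and 0.88 on 0.5MAhR arrays 1 to 4. Apart from Control 6, the arrays of both groups shared a range, with Control 7 and 0.5MAhR 1 at its lower end. The difference was 0.57 (SE 0.64). Lss, the lanosterol synthase (probe A_64_P126508), stood at 1.06, -1.56, 0.97 and 0.58 on Control arrays 5 to 8, and at -0.41, 0.43, 0.70 and 1.22 on 0.5MAhR arrays 1 to 4. Its low 0.5MAhR value, on array 1, lay on side 2 like Control 6, and its difference turned sign between the sides, at -0.19 in side 1 and 0.64 in side 2.

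Lanosterol is turned into cholesterol by demethylation, reduction and isomerisation. Msmo1, the C4 methylsterol oxidase (probe A_43_P13088), had the widest spread of the members over the 8 arrays (SD 1.25) and the largest difference. Its log2 ratios were 2.26, -1.38, 0.91 and 1.98 on Control arrays 5 to 8, and 1.05, 2.49, 1.71 and 2.08 on 0.5MAhR arrays 1 to 4. Control 6 lay far below the rest, and Control 7 and 0.5MAhR 1 were the next lowest, close to each other. The difference was 0.89 (SE 0.73, 95% interval -0.77 to 2.55, limma unadjusted p = 0.255), and it was 0.12 without Control 6. Cyp51, the lanosterol demethylase (probe A_42_P604399), stood at 1.43, -1.26, 0.86 and 1.48 on Control arrays 5 to 8, and at 0.67, 1.44, 1.09 and 1.26 on 0.5MAhR arrays 1 to 4. Tm7sf2, the sterol C14 reductase (probe A_64_P083888), stood at 3.63, 0.40, 3.16 and 2.97 on Control arrays 5 to 8, and at 2.78, 3.34, 3.17 and 3.23 on 0.5MAhR arrays 1 to 4. In both genes 7 arrays shared a narrow range and Control 6 stood below it. The difference of Cyp51 was 0.49 (SE 0.56), and that of Tm7sf2 was 0.59 (SE 0.61).

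Dhcr7, which makes cholesterol in the last step of its branch, was at -0.73 on Control 6 and between 1.05 and 1.86 elsewhere, with a difference of 0.52 (SE 0.49). The other 4 enzymes of the late steps stood apart less on that array. On Control 6 Nsdhl, the C4 decarboxylase, was at 1.77, Hsd17b7, the 3-ketosterol reductase, at 1.46, Ebp, the sterol isomerase, at 1.72, and Sc5d, the C5 desaturase, at 1.33. Their next lowest arrays were at 2.51, 1.80, 2.78 and 2.02. Their differences lay between 0.08 for Hsd17b7 and 0.31 for Sc5d.

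**Figure D2:**
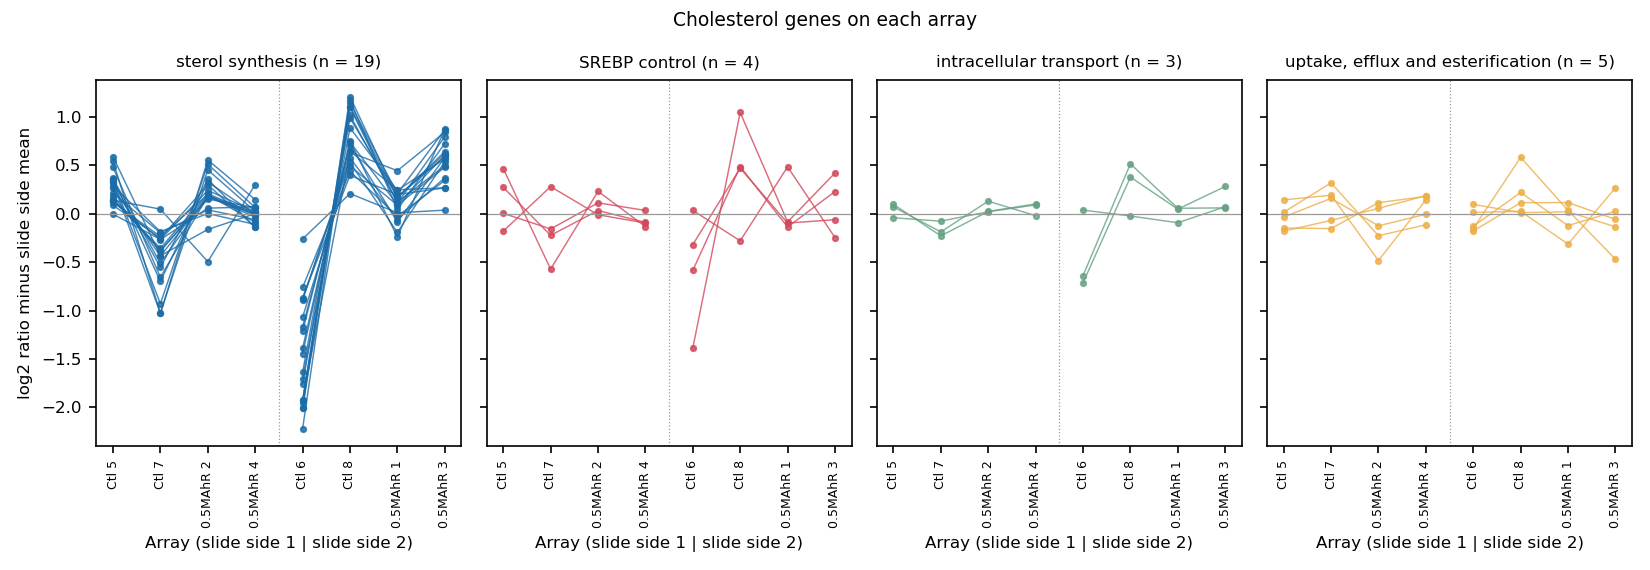
The log2 ratio of each tested member minus the mean of its slide side, on the 4 arrays of side 1 (left of the dotted line, Ctl for Control) and the 4 of side 2 (right), with 1 line per gene and 1 panel per role. The 19 synthesis genes lie between -2.22 and -0.26 on Control 6, while the 5 genes of uptake, efflux and esterification keep near 0 there.

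The synthesis genes varied together over the arrays, and the arrays at the extremes were both Control arrays. The median log2 ratio of the 19 genes was 1.96, -0.73, 1.05 and 1.86 on Control arrays 5 to 8, and 1.05, 1.87, 1.60 and 1.69 on 0.5MAhR arrays 1 to 4. The mean was 1.04 ± 1.24 (SD, n = 4) over the Control arrays and 1.55 ± 0.36 (SD, n = 4) over the 0.5MAhR arrays, or 1.63 ± 0.50 (SD, n = 3) in Control without array 6. After the mean of each slide side had been removed, 19 of 19 synthesis genes and 24 of 31 members were lowest on Control 6, as 14.4% of all genes were. A gene at least 1 below its side mean on Control 6, on the log2 scale, was found 34 times among all genes (0.322%), and 15 of these were members: 14 synthesis genes and Insig1. Among the 50 genes lowest on Control 6 relative to their side, 17 were members.

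On the same slide side, Control 8 stood above Control 6 in 19 of 19 synthesis genes, by a median of 2.19 on the log2 scale, or 4.55-fold. The ratio ran from 1.38-fold for Aacs to 10.3-fold for Msmo1, with 9.29-fold for Fdps, 8.72-fold for Idi1, 8.63-fold for Hmgcs1 and 8.17-fold for Sqle. These are ratios of single pools with no replicate, and the offset of the background correction makes them smaller where a signal is dim. In net Cy5 signal, without normalisation, the ratio was 4.13-fold for Aacs, 12.2-fold for Msmo1 and 11.2-fold for Fdps. It was 15.5-fold for Idi1, 9.06-fold for Hmgcs1 and 14.1-fold for Sqle, so the order of the genes depends on the measure. The low values were in the liver channel. On Control 6 the median deviation of the synthesis genes from their side was -1.49 in Cy5 alone, and in Cy3 alone no synthesis gene deviated by more than 0.0999 in size there. The median difference between the groups was 0.44 in Cy5 alone and -0.02 in Cy3 alone. The summed hepatocyte marker signal of Control 6 was 537200, inside the Control range, as were those of the Kupffer, stellate, erythroid, and lymphocyte and neutrophil markers. The summed endothelial and bile duct marker signals, 2083 and 129.2, were the lowest of the Control arrays. Arrays of the mixture group went lower still, to 2011 and 109.4. After side means had been removed, the median deviation on Control 6 was -0.03 for the endothelial and 0.03 for the bile duct markers. The part of these marker differences in the result was not tested.

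**Figure D3:**
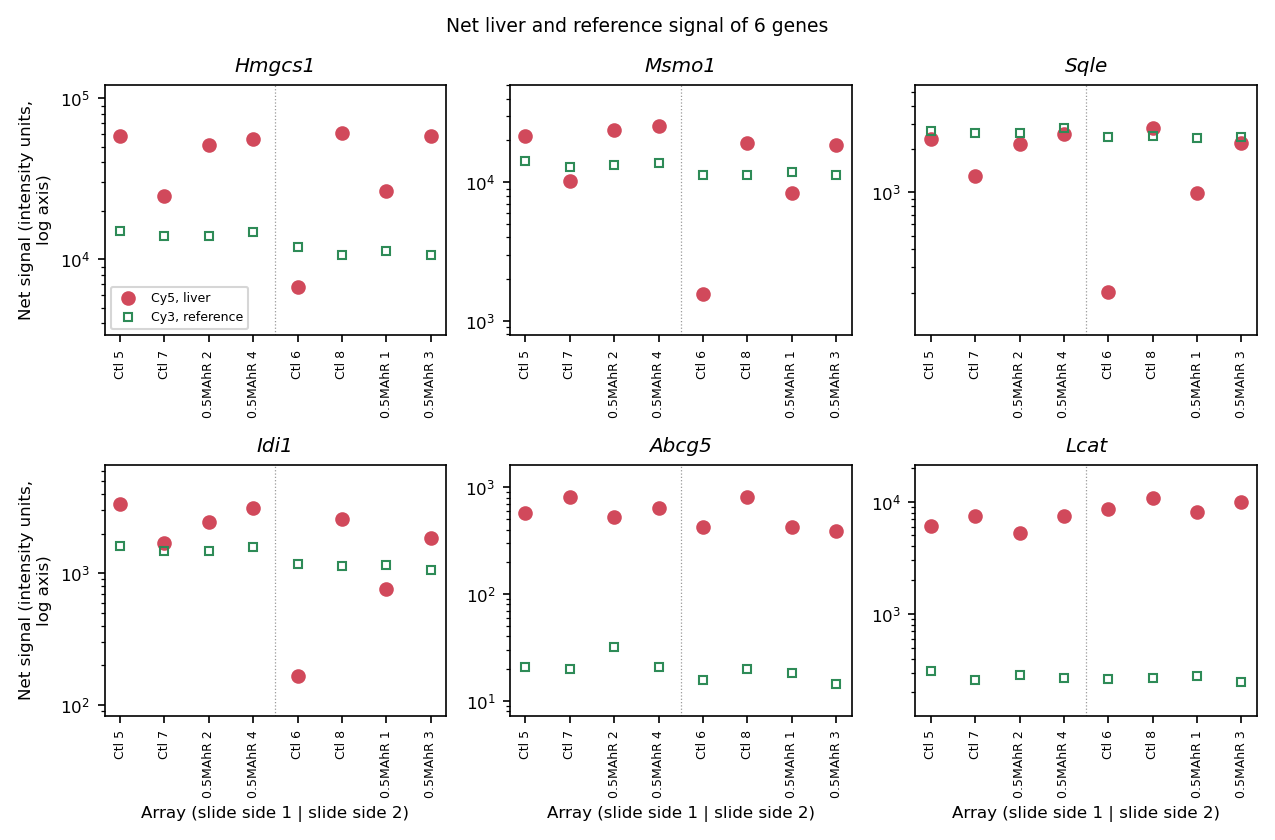
Net signal (foreground minus background, intensity units, log axis) of 4 synthesis genes and of Abcg5 and Lcat on each array, with liver in Cy5 as filled circles and the reference in Cy3 as open squares. The liver signal of Hmgcs1 was 60810 on Control 8 and 6714 on Control 6, and its reference signal lay between 10540 and 15040 on the 8 arrays.

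Control 6 was not the only array with low synthesis genes. Control 7 lay below Control 5 in 19 of 19 synthesis genes, by a median of 0.57, and below 0.5MAhR 4 in 19 of 19, by a median of 0.41, all on side 1. The 0.5MAhR array 1 lay below 0.5MAhR 3 in 19 of 19, by a median of 0.43, and still above Control 6 in 19 of 19, by a median of 1.54. Control 5 and 0.5MAhR 2 were close, with 11 genes higher in the former and 8 in the latter.

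The spread within groups followed from these arrays. The SD over 4 arrays was larger in Control in 18 of 19 synthesis genes and in 26 of 31 members, as in 46.1% of all genes. The median SD of the synthesis genes was 1.16 in Control and 0.35 in 0.5MAhR, while that of all genes was 0.21 and 0.22. Without Control 6 the median Control SD of the synthesis genes was 0.44 and that of all genes 0.18, and the Control SD was larger in 14 of 19 synthesis genes and 19 of 31 members, as in 37.4% of all genes. In 11 of 31 members the Control SD was over 3 times that of 0.5MAhR, against 2.82% of all genes. These were Acat2, Hmgcs1, Pmvk, Fdps, Sqle, Cyp51, Tm7sf2, Ebp, Dhcr7, Insig1 and Stard4. Without Control 6 this held for 1 of 31 members, Insig1, against 2.36% of all genes. The difference in spread was not tested.

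**Figure D4:**
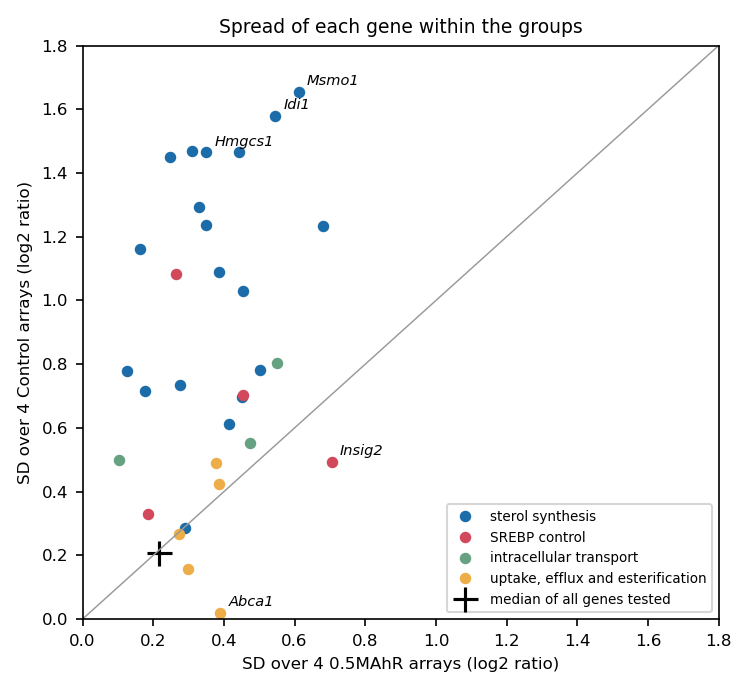
SD of the log2 ratio over the 4 0.5MAhR arrays (horizontal) and the 4 Control arrays (vertical) for each tested member, coloured by role, with the line of equal SD and a cross at the median of all genes tested. Msmo1 and Idi1 have the largest Control SDs, 1.66 and 1.58, with Control 6 included, and Insig2 and Abca1 lie below the line.

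Of the control genes, Insig1, itself a target of SREBP-2, moved with the synthesis genes. Its log2 ratios were 1.95, 0.10, 0.91 and 2.53 on Control arrays 5 to 8, and 1.40, 1.72, 1.91 and 1.35 on 0.5MAhR arrays 1 to 4. Control arrays held its 2 lowest and 2 highest values, and its difference was 0.22 (SE 0.47). Insig2, which blocks SCAP in the same way but is not induced by SREBP-2, did not follow. It stood at 2.38, 3.53, 2.84 and 3.21 on Control arrays 5 to 8, and at 3.98, 2.55, 3.25 and 2.46 on 0.5MAhR arrays 1 to 4. All side 2 arrays of Insig2 were above all side 1 arrays, by a mean of 0.93, and Control 6 lay 0.04 from its side mean. Srebf2, the gene of SREBP-2, was lowest on Control 6 at -1.29, with 0.5MAhR 1 next at -0.84, and its difference was 0.02 (SE 0.35). Scap differed by -0.002 (SE 0.17), the smallest difference in size of the members, and Control 6 was its lowest array too, at 0.91 against 1.13 for the next.

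Of the transport genes, Stard4, a soluble sterol carrier, and Tmem97, an endoplasmic reticulum protein that binds NPC1, were lowest on Control 6, at -0.29 and -0.53. Their differences were 0.12 (SE 0.22) and 0.22 (SE 0.41). A second Stard4 probe, A_43_P19672, was dim, with a mean net Cy5 signal of 42.6 against 490 for the brighter probe. This dim probe was not lowest on Control 6, at 0.081 there and 0.062 on its lowest array. Between the sides it shifted by 0.31, against -0.16 with the brighter probe. Npc1, which exports cholesterol from lysosomes, ran from 1.40 to 1.57 on side 2 and from 0.44 to 0.75 on side 1, and its groups differed by 0.05 (SE 0.31). Its second, dimmer probe A_64_P174430 shifted the opposite way between the sides, by -0.61 against 0.87, and was lowest on Control 6. The 2 Npc1 probes therefore disagreed over the arrays, although both gave a small difference between the groups, 0.06 and 0.05.

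The genes of uptake, efflux and esterification did not share the low values on Control 6. None of the 5 tested was lowest on Control 6 after side means had been removed, and their median difference was -0.12. Their deviations there ran from -0.177 for Scarb1, nearly its lowest value (-0.178 on Control 5), to 0.099 for Lcat. Before that removal, Soat2 was lowest on Control 6, at 1.056 against 1.063 on 0.5MAhR 1. Abcg5, which forms the biliary sterol exporter with Abcg8 (probe A_43_P12924), had log2 ratios of 4.66, 3.98, 4.97 and 4.72 on Control arrays 5 to 8, and of 4.17, 4.42, 3.66 and 4.53 on 0.5MAhR arrays 1 to 4. Control arrays 5, 7 and 8 were the 3 highest, and Control 6 was the second lowest of all, so the groups overlapped. The difference was -0.38 (SE 0.25, 95% interval -0.95 to 0.18, limma unadjusted p = 0.157), with -0.34 in side 1 and -0.43 in side 2. With the side as a block the unadjusted p was 0.044 and the adjusted p in limma 0.772, and without Control 6 the difference was -0.59 (SE 0.21). The reference signal of Abcg5 was only 14 to 32 intensity units, near background, so its ratio rests on the liver signal of 388 to 813 units.

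Abca1, which loads cholesterol onto apolipoprotein A-I (probe A_44_P323106), had log2 ratios of 1.87, 1.89, 1.92 and 1.90 on Control arrays 5 to 8, and of 1.56, 1.24, 2.15 and 1.87 on 0.5MAhR arrays 1 to 4. The Control arrays were almost equal, with an SD of 0.02, and the 0.5MAhR arrays spread to both sides of them. The difference was -0.19 (SE 0.18, limma unadjusted p = 0.314). Lcat, the plasma enzyme that esterifies cholesterol on lipoproteins (probe A_43_P15264), had log2 ratios of 5.58, 6.16, 5.77 and 6.07 on Control arrays 5 to 8, and of 6.08, 5.49, 5.92 and 5.61 on 0.5MAhR arrays 1 to 4. Its arrays divided by slide side and not by group, and the difference was -0.12 (SE 0.17). Scarb1, the receptor for high density lipoprotein, and Soat2, which esterifies cholesterol in the cell, differed by 0.15 (SE 0.27) and 0.10 (SE 0.16). The second Scarb1 probe, A_44_P422696, gave a smaller difference of 0.018. Its mean net Cy5 signal was 236, against 333 for the brighter probe.

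Further genes of the same pathways came from lists chosen by function, and none of them passed the adjusted threshold in limma with or without the block. Of 7 further synthesis genes tested of 9 listed, 3 were higher and 4 lower in 0.5MAhR, with a median difference of -0.01. After side means had been removed, 3 of these 7 genes were lowest on Control 6. Erg28, a scaffold of the C4 demethylation complex, had a difference of 0.39. Of 6 tested genes of SREBP processing and turnover (11 listed), 2 were higher and 4 lower. Pgrmc1, a haem-binding partner of INSIG1 and of P450 enzymes, differed by 0.37, with an adjusted p of 0.29 in limma with the block, and Ube2g2, a ubiquitin-conjugating enzyme of the endoplasmic reticulum, by -0.32. Of 8 tested genes of uptake and trafficking (14 listed), 4 were higher and 4 lower. Their median difference was -0.0048. After side means had been removed, 3 of these 8 genes were lowest on Control 6 and 2 were highest there. Of the 50 genes lowest on Control 6 relative to their side, 1 came from this list. Of 9 tested genes of efflux, LXR and esterification (11 listed), 4 were higher and 5 lower, led by Apoe at -0.15 and Lpcat3, an LXR target that remodels phospholipids, at 0.14. Of these 9 genes, 1 was lowest on Control 6.

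Fatty acid synthesis, driven by the sister factor SREBP-1, was low on Control 6 as well. Of 12 tested genes of SREBP-1 lipogenesis (16 listed), 10 were lowest on Control 6 after side means had been removed, and 11 were higher in 0.5MAhR. Their median difference was 0.23 with all arrays and -0.06 without Control 6, when 5 of 12 were higher. On Control 6 Fasn, the fatty acid synthase, stood at -1.27 from its side mean, Acly, which supplies acetyl-CoA, at -1.20, Elovl6, a fatty acid elongase, at -1.19, and Scd, the stearoyl-CoA desaturase, at -1.13. Fasn, Acly and Scd were named after their values were seen. The largest differences of this list were 0.66 for Me1, the malic enzyme, and 0.53 for Elovl6. The difference of Me1 had an unadjusted p of 0.027 in limma and was 0.55 without Control 6.

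**Figure D5:**
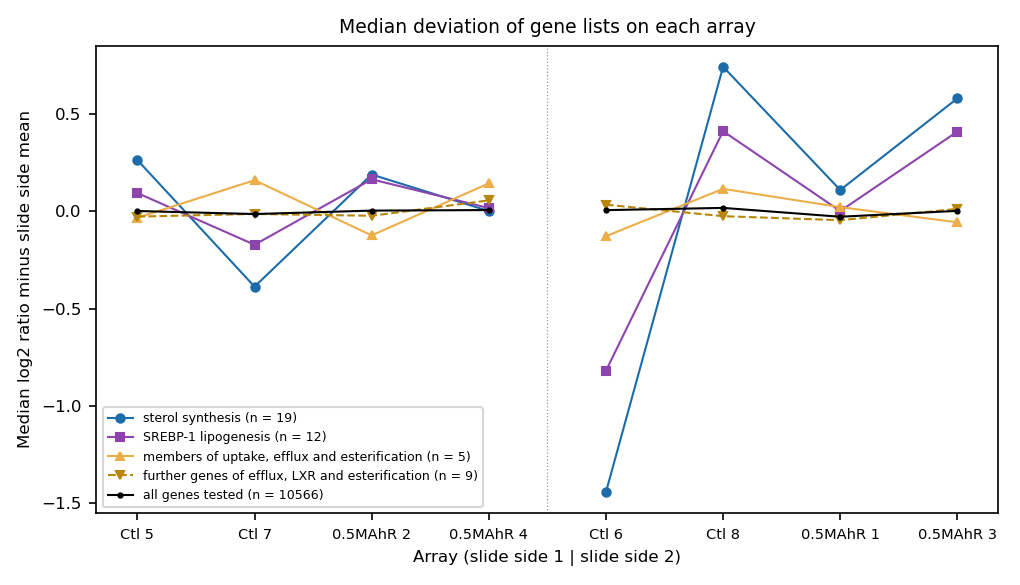
Median deviation from the slide side mean (log2 ratio) of 5 gene lists on each array, with sides 1 and 2 divided by the dotted line. Synthesis genes stand at -1.44 and SREBP-1 lipogenesis genes at -0.82 on Control 6, and all genes tested at 0.01.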

How the data were processed

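Liver RNA of 8 pools was hybridised to 2-colour Agilent arrays, 200 ng of total RNA each, per the labels' protocols. The authors deposited scanner files with an intensity for each spot, written per the file headers by version 11.0.1.1 of Agilent Feature Extraction, of which the median foreground and background signals were used, with the processed signals as an alternative. The deposited log10 ratio column of the scanner files was not used. A deposited table of log2 ratios, made by steps that the sources used here do not give, served as an alternative. It correlated with r of 0.997 to 0.998 per array with loess values made without background correction, so its scale and direction were read from the scanner values, and its column medians lay between -0.0389 and -0.0326. Its centring method stayed unknown.

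Using limma 3.58.1 in R 4.3.3, normexp (offset 50) corrected the background, arrays were normalised with loess, outlier spots (771 to 956 an array) were dropped and spots of a probe were averaged. A probe was kept when 3 or more of the 4 Cy5 signals of a group were well above background (11406 of 30367 probes, of which 18005 had a symbol by RefSeq accession, assembly GRCr8). The brightest probe represented a gene. Groups were compared with lmFit and eBayes, two-sided, Benjamini-Hochberg over 10566 genes, threshold 0.05. The members and lists were chosen with earlier results of these data known. Values on each array are given for the 8 members with the largest SD over arrays and the 3 with the smallest unadjusted p in each direction. Insig1 and Insig2 were added after their values were seen. In other lists the 2 largest differences are named, except for genes that are not reported here. The number of arrays limits the precision. Tested on simulated data of 10566 genes, the fit for 0.5MAhR against Control recovered 65% of the genes given a log2 change of 1 and 97% of those given a change of 2, with 1 false call. With slide side as a block it recovered 94% and 99%, with 8 false calls. Recovery was not tested for the synthesis genes, so these percentages do not describe them. Their median Control SD was 1.16, against 0.21 for all genes. Alternatives covered background correction, normalisation, channel, filter, variance model, side and leaving out each array.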

Additional observations from a re-analysis of the deposited data

How the results depend on the processing

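No paired analysis was possible because the Control pools were numbered 5 to 8 and the 0.5MAhR pools 1 to 4, so the groups shared no number. None of the 31 members passed the adjusted threshold in limma under any of the 30 alternatives, and the lowest adjusted p of a member was 0.603. Of 930 member values under alternatives, 851 kept the sign of the difference and 79 turned it, 19 of these with Control 6 left out and no block. The cause of each change was not tested. The median difference of the synthesis genes ran from -0.12 to 0.91 when 1 array was left out, without and with the block, and was below 0 only without Control 6. It ran from 0.17 to 0.64 under the other alternatives. The count of 24 members lowest on Control 6 was the same under the 3 alternatives run for it. Over all genes, 1 passed the threshold, against 5 with slide side as a block, 2 in side 1 alone, 0 in side 2 alone, 0 with the processed signals, 14 in Cy5 alone with the block (an alternative chosen after seeing the data, like the SDs without Control 6), and 0 to 11 with 1 array left out.

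The difference turned sign in side 1 alone for Lss (-0.19), Tm7sf2 (-0.11), Hsd17b7 (-0.16), Ebp (-0.018), Srebf2 (-0.053), Scap (0.15) and Insig2 (-0.10), and in side 2 alone for Npc1 (-0.017) and Soat2 (-0.094). It also turned for Scap with an offset of 16 (0.0061), with median centring (0.034) and in the deposited values (0.0040), for Soat2 with the processed signals (-0.037), and for Insig2 in Cy5 alone, with and without the block (-0.016). With 1 array left out, the differences of the members that turned ran as follows: Acat2 from -0.16 to 0.91, Aacs from -0.033 to 0.21, Pmvk from -0.087 to 0.64, Idi1 from -0.28 to 1.04, Fdps from -0.23 to 1.06, Fdft1 from -0.16 to 0.67, Sqle from -0.12 to 1.13 and Lss from -0.39 to 0.57. The ranges were, next, Cyp51 from -0.14 to 0.98, Tm7sf2 from -0.12 to 0.97, Nsdhl from -0.14 to 0.46, Hsd17b7 from -0.26 to 0.33, Ebp from -0.094 to 0.53, Sc5d from -0.036 to 0.58, Dhcr7 from -0.061 to 0.97 and Srebf2 from -0.30 to 0.25. They were, last, Scap from -0.14 to 0.19, Insig1 from -0.29 to 0.68, Insig2 from -0.24 to 0.27, Npc1 from -0.15 to 0.21, Stard4 from -0.11 to 0.36, Tmem97 from -0.15 to 0.42 and Scarb1 from -0.0017 to 0.34. The median difference with 1 array left out ran from -0.079 to 0.10 for the further synthesis genes, from -0.035 to 0.010 for SREBP processing, from -0.037 to 0.068 for uptake and trafficking, from -0.063 to 0.037 for efflux and LXR, and from -0.057 to 0.38 for SREBP-1 lipogenesis. Signal over background limits Abcg8 and Ggps1, which have no measured difference, and Aacs.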
